A study of Mus musculus with 24 samples.

Results

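The response to treatment was compared between TFR cells (CD4+CXCR5+PD1Hi GITRHi) and Treg cells (CD4+CXCR5-GITR+) sorted from NZBWF1/j females. The hybrid is used as a model of lupus, since it makes autoantibodies spontaneously. From 23 weeks of age, treated mice had received recombinant mouse OX40L together with mouse JAG1, each at 2 mg/kg of body weight, by weekly intraperitoneal injection for 3 weeks. Control mice of the same age and sex had received PBS, and cells of all mice were sorted at week 26. There were 3 libraries each of treated TFR, control TFR, treated Treg and control Treg cells, so 12 of the 24 libraries of the series were used, chosen by the group in their titles. In each library the counts of 16270 genes were tested. The labels do not tie the libraries of a group to separate mice. The p-values therefore measure no more than the spread among libraries, which may be technical. OX40L and JAG1 were given together and to every treated mouse, so the effect of either protein alone cannot be told apart.

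Regulatory T cells carry the transcription factor Foxp3 and restrain other lymphocytes. Treg cells do so in many tissues, whereas TFR cells enter B cell follicles through the chemokine receptor Cxcr5 and limit the germinal centre reaction, in which antibodies against self can arise. OX40L is the ligand of the costimulatory receptor OX40 (Tnfrsf4), which signals through NF-kB, and JAG1 is a ligand of Notch receptors. For each gene, the log2 fold change of treated over control libraries was taken in TFR cells and in Treg cells, and the Treg value was subtracted from the TFR value. A higher difference therefore means a treatment effect that was more positive in TFR cells, and a lower difference one that was more positive in Treg cells. Levels are given as CPM, counts normalised to the TMM-scaled library size, in the order of library numbers 1, 2 and 3, and differences are given on the log2 scale with the standard error (SE) of the model. Adjusted p-values are from edgeR's quasi-likelihood F test with Benjamini-Hochberg adjustment over all tested genes, and a gene was called at an adjusted p under 0.05.

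Within each treatment Cxcr5 and Pdcd1 RNA followed the sort gates, whereas Tnfrsf18 RNA did so in treated mice only. Cd3e, Cd4, Foxp3 and Ctla4 were above 300 CPM in all 12 libraries. Cxcr5 was higher in TFR than in Treg libraries by a log2 of 1.74 in both control and treated mice (adjusted p = 4.96e-05 and 4.33e-05), and Pdcd1, which encodes PD1, by 0.74 and 0.98 (adjusted p = 0.000770 and 0.000117). Tnfrsf18, which encodes GITR, was higher in TFR libraries of treated mice by 0.78 (adjusted p = 0.000839), and the gap in control mice was -0.23 (adjusted p = 0.188). Cxcr5 RNA was not at 0 in the Cxcr5-negative gate, since Treg libraries held 15.4 to 46.8 CPM. Depth was 35.4 to 50.9 M counts in treated TFR, 38.2 to 53.8 M in treated Treg and 27.1 to 28.0 M in control Treg libraries, but 4.85 to 9.62 M in control TFR libraries. With all libraries thinned to the smallest total, 12585 ± 636 genes were detected in control TFR libraries (SD, n = 3), against 17777 ± 1060 in treated TFR, 17431 ± 687 in treated Treg and 15798 ± 95.7 in control Treg libraries. The mitochondrial share of counts was 10.6% in control TFR and 10.7% in control Treg libraries, and 2.52% and 2.0% in the treated ones. Kidney podocyte markers summed to 695 CPM in treated TFR library 1 and to 196 CPM in treated Treg library 3, against 7.68 to 38.1 CPM in the other 10 libraries, and Gm42418 took 14.9% of the counts in control Treg library 3.

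The difference between the 2 treatment effects passed the test for 2446 genes, 15% of those tested. Of these, 1594 (9.8%) had a higher and 852 (5.24%) a lower difference. In TFR cells 5514 genes were called (33.9%), of which 3621 rose with treatment (22.3%) and 1893 fell (11.6%). In Treg cells 2551 were called (15.7%), 1445 rising (8.88%) and 1106 falling (6.8%). Which subset had more called genes depended on the method, since limma voom called 2654 in TFR and 6509 in Treg cells. The biological coefficient of variation, a measure of spread among libraries, was 0.895 in control TFR and 0.408 in treated TFR libraries. It was 0.344 in control Treg and 0.253 in treated Treg libraries, while the fit used 1 spread per gene for all groups. Treated and control values did not overlap for 45.2% of all genes in TFR and 51.5% in Treg libraries, so lack of overlap alone marks no gene. The median difference over all tested genes was 0.17, and single genes are given without subtracting it. In all 24 libraries fitted together 984 genes had a higher and 424 a lower difference. Without the 2 libraries that held kidney transcripts, the counts were 559 and 358.

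The commonest pattern among the higher differences was a rise in TFR cells with no call in Treg cells, seen in 1093 of the 1594 genes. A further 167 rose in both subsets and more in TFR cells, 153 fell in Treg cells with no call in TFR cells, 84 rose in TFR and fell in Treg cells, 52 fell in both and 45 were called in neither. Among the 852 lower differences, 404 genes fell in TFR cells with no call in Treg cells, and 198 rose in Treg cells with no call in TFR cells. Another 95 fell in TFR and rose in Treg cells, 70 fell in both, 45 rose in both and 40 were called in neither. Of the genes with a higher difference, 592 had no read in any control TFR library, whereas every gene with a lower difference had some. A gene without reads there cannot fall in TFR cells. This split therefore largely follows from the absent reads and is no result about direction. Of all tested genes 1927 had no read in control TFR libraries. With the libraries thinned to 1 depth there were 2014 such genes, against 492 in control Treg, 115 in treated Treg and 59 in treated TFR libraries. Among genes with a mean of at least 10 CPM over the 12 libraries, 948 differences were higher and 1013 lower, so the excess of higher differences was not seen there. After every library was thinned to the smallest total the counts were 957 and 790, and limma voom called 648 and 617. In bulk RNA of a sorted subset, fewer cells of a type and less RNA per cell cannot be told apart.

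**Figure D1:**
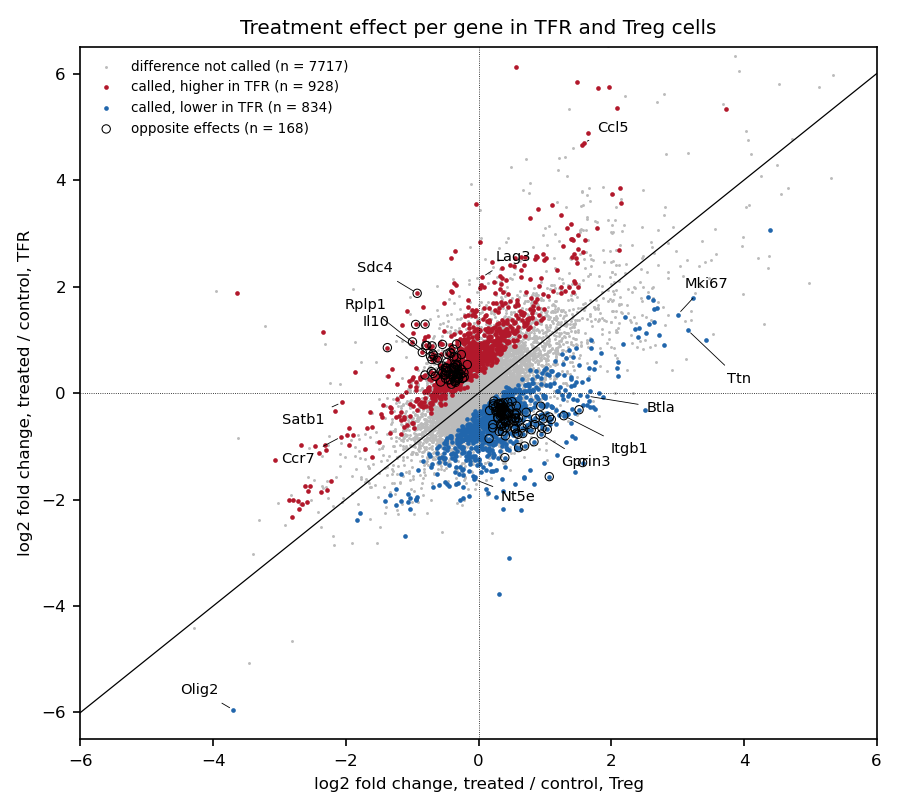
The log2 fold change of treated over control libraries in Treg cells (x axis) and in TFR cells (y axis) for genes of at least 10 CPM in the highest group and above 0 in all 4 groups. Points on the diagonal have equal effects, and red (928) and blue (834) points have a called difference. Circles mark the 168 genes among them with opposite effects that were both called, such as Il10 and Sdc4 in the upper left and Gprin3 in the lower right, and 13 genes lie outside the axes.

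Opposite effects, with both subset effects and the difference called, were found for 179 genes (1.1%), 84 up in TFR and down in Treg cells and 95 the other way. Il10, the suppressive cytokine interleukin 10 (chr1:131019845-131024974 in mm10), was at 100.5, 111 and 173 CPM in control TFR and 203, 220.0 and 226 CPM in treated TFR libraries. In Treg libraries it was at 112, 104 and 96.1 CPM in controls and 60.05, 56.5 and 57.1 CPM after treatment. Treated and control values did not overlap in either subset: all treated TFR libraries were above their controls and all treated Treg libraries below theirs. The log2 fold changes of 0.76 in TFR (SE 0.16, adjusted p = 0.00335) and -0.85 in Treg cells (SE 0.16, adjusted p = 0.00279) gave a difference of 1.61 (SE 0.23, adjusted p = 0.000818).

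Sdc4 encodes syndecan 4, a cell surface proteoglycan (chr2:164424247-164443887). Its levels were 14.8, 11.9 and 10.7 CPM in control TFR, 49.4, 46.5 and 42.2 CPM in treated TFR, 41.5, 41.7 and 44.7 CPM in control Treg and 23.2, 21.8 and 22.3 CPM in treated Treg libraries. The order of the subsets was reversed by treatment, with control Treg and treated TFR libraries high and the other 6 low. Its difference was 2.80 (SE 0.22, adjusted p = 1.93e-05). Cdkn1a, the cell cycle inhibitor p21 (chr17:29090976-29100727), was at 37.4, 17.2 and 29.4 CPM in control TFR, 63.8, 70.9 and 71.3 CPM in treated TFR, 46.4, 49.8 and 39.1 CPM in control Treg and 27.0, 25.3 and 24.9 CPM in treated Treg libraries. No treated value overlapped a control value of the same subset, and the difference was 2.10 (SE 0.31, adjusted p = 0.00109). The other genes taken by the same rule were Prkd3, a protein kinase D, at 2.23, Suox, sulfite oxidase, at 2.24, and Adprhl2, an ADP-ribose hydrolase, at 1.96 (adjusted p = 0.000865, 0.00144 and 0.000921).

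In the other direction, Gprin3 (chr6:59347226-59426294) was at 157, 135 and 168 CPM in control TFR and 83.1, 94.1 and 91.5 CPM in treated TFR libraries. Its Treg levels were 82.9, 90.9 and 99.5 CPM in controls and 173, 175 and 178 CPM after treatment. Control TFR and treated Treg libraries were the high ones, without overlap within either subset, and the difference was -1.72 (SE 0.14, adjusted p = 2.24e-05). Clec2i, a C-type lectin-like protein (chr6:128887588-128898167), was at 73.4, 55.5 and 68.4 CPM in control TFR, 34.7, 31.7 and 32.5 CPM in treated TFR, 36.6, 31.3 and 37.5 CPM in control Treg and 54.2, 55.2 and 61.0 CPM in treated Treg libraries. It showed the same crossing, with a difference of -1.69 (SE 0.18, adjusted p = 0.000155). Itgb1, the integrin beta 1 chain (chr8:128685654-128733200), fell in TFR cells by 0.43 on the log2 scale (adjusted p = 0.00799) and rose in Treg cells by 1.28 (adjusted p = 3.64e-06). Its levels were 468, 418 and 379.9 CPM in control TFR, 367, 297 and 279 CPM in treated TFR, 365, 326 and 344 CPM in control Treg and 827, 805 and 889 CPM in treated Treg libraries, so that treated Treg libraries stood above the other 9. Stx17, a SNARE protein of membrane fusion, Polg2, a subunit of the mitochondrial DNA polymerase, Parp3, an ADP-ribosyltransferase, and Rab11fip2, which binds the small GTPase Rab11, also fell in TFR and rose in Treg cells. Their differences were -2.64, -1.48, -1.37 and -1.43 (adjusted p = 0.00175, 8.42e-05, 0.000738 and 0.00169).

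**Figure D2:**
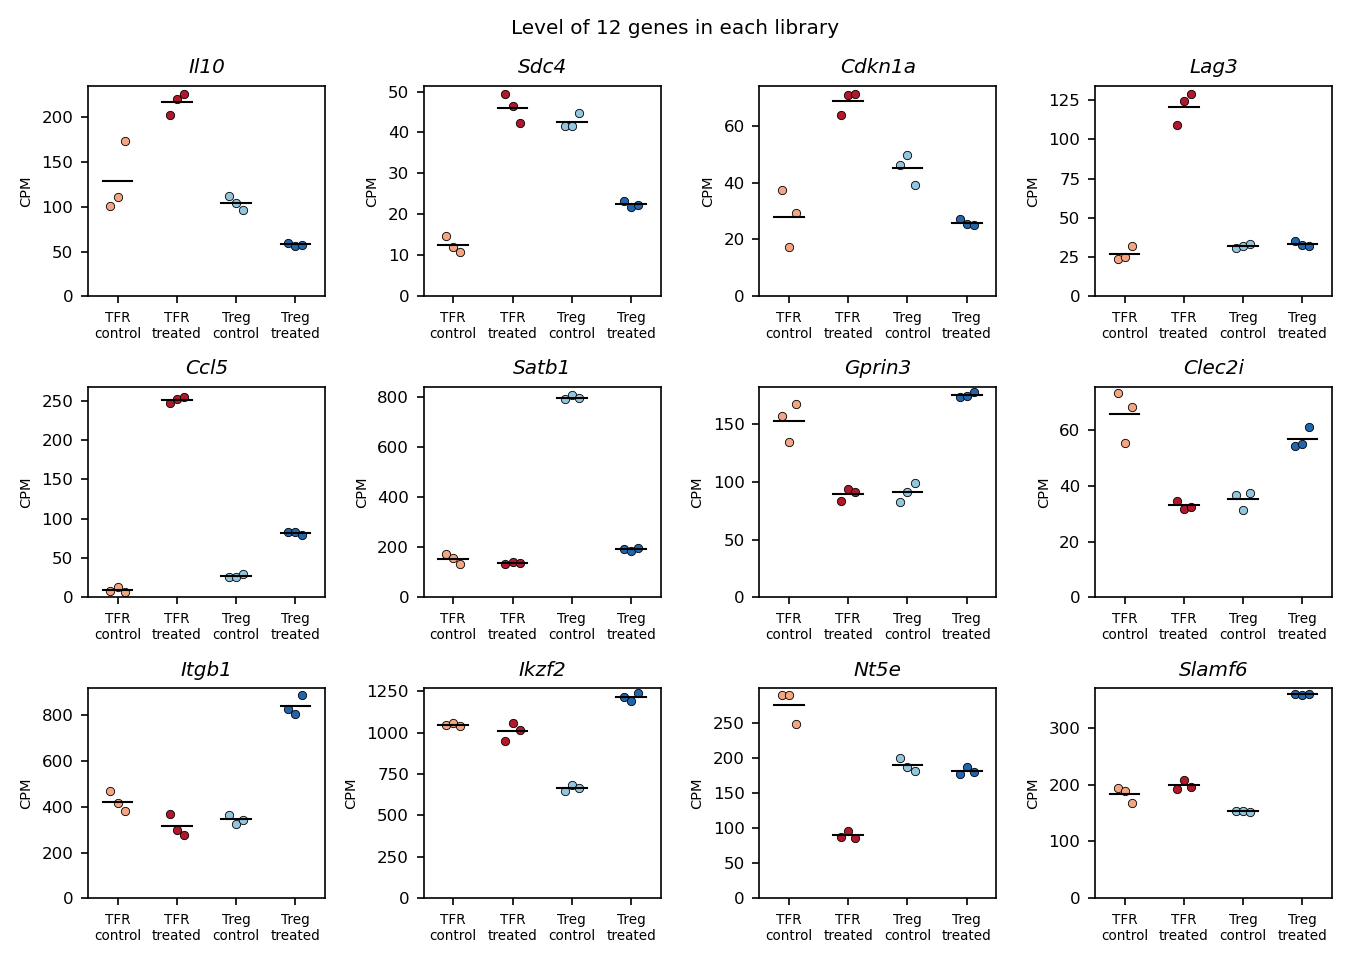
Level of 12 genes (y axis, CPM, starting at 0) in each of the 3 libraries of control TFR, treated TFR, control Treg and treated Treg cells (x axis), with the mean of each group as a line. Il10, Sdc4 and Cdkn1a rose in TFR and fell in Treg cells, Gprin3, Clec2i and Itgb1 did the reverse, and Lag3 stood at 109 to 129 CPM in treated TFR libraries and at 24.1 to 35.0 CPM in the other 9.

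The widest differences were of genes with no read in the control TFR libraries, for which a floor of 3 reads over that group (0.127 CPM) gives a lower bound. Il12rb2, a chain of the interleukin 12 receptor (chr6:67291318-67376188), was at 0 CPM in all 3 control TFR libraries and at 1.498, 0.971 and 0.640 CPM in treated ones. In Treg libraries it fell from 35.2, 28.2 and 36.8 CPM in controls to 2.71, 2.98 and 3.05 CPM. Control Treg libraries alone were high, and the difference was at least 6.57. Igfbp4, which binds insulin-like growth factors, was at 0 CPM in control TFR libraries against 12.03, 10.3 and 6.90 CPM in treated TFR, 12.4, 7.65 and 9.69 CPM in control Treg and 5.94, 6.98 and 7.98 CPM in treated Treg libraries. Control TFR libraries alone were low, with a difference of at least 6.82. Nkg7, a cytotoxic granule protein (chr7:43437073-43438249), was also at 0 CPM in control TFR libraries and at 58.7, 60.3 and 58.4 CPM in treated ones, at least 468-fold higher. In Treg libraries it went from 1.07, 1.09 and 0.649 CPM to 13.995, 14.9 and 14.8 CPM, so it rose in both subsets, and the difference was at least 4.93. Ccl4, a chemokine of activated lymphocytes, followed with 0 CPM against 54.5, 53.99 and 53.0 CPM in TFR and 2.51, 0.488 and 0.606 CPM against 15.4, 16.6 and 18.3 CPM in Treg libraries, a difference of at least 4.96. Rgmb, Hist2h2ab, Prg4, Mcam and Rgs11 had bounds of 5.402, 5.15, 5.01, 4.63 and 4.53.

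Of 30 effector genes of regulatory T cells, 9 had a higher and 2 a lower difference (30% and 6.67%), with a median of 0.40. Each list count is to be read against the shares of all genes, 9.8% higher and 5.24% lower. Calls over all genes also change with the analysis, so a list count in an alternative is to be read against the totals there. With all 24 libraries 984 genes were higher and 424 lower of 18789 tested. Without the kidney libraries it was 559 and 358 of 16170, and with limma voom 648 and 617 of 16270. Without control TFR library 3 it was 2522 and 1379 of 17785. With treatment, 22.3% of all genes rose in TFR and 8.88% in Treg cells. Lag3, a co-inhibitory receptor that binds MHC class II (chr6:124904361-124911705), was at 24.1, 24.8 and 31.8 CPM in control TFR and 109, 124 and 129 CPM in treated TFR libraries. Its Treg levels were 30.9, 32.1 and 33.5 CPM in controls and 35.0, 32.8 and 32.2 CPM after treatment. Treated TFR libraries stood alone above the other 9, and the difference was 2.12 (SE 0.18, adjusted p = 2.79e-05). Ccl5, a chemokine of effector lymphocytes (chr11:83525778-83530518), was at 8.26, 13.6 and 6.56 CPM in control TFR, 247, 253 and 255 CPM in treated TFR, 26.3, 26.4 and 29.7 CPM in control Treg and 83.4, 83.5 and 79.4 CPM in treated Treg libraries. It rose in both subsets without overlap, by 4.70 in TFR and 1.58 in Treg cells, and control TFR libraries, the lowest, became the highest (difference 3.11, SE 0.24, adjusted p = 1.82e-05). Gzmb, the protease granzyme B, had means of 1.42 ± 1.95 and 79.9 ± 7.91 CPM in control and treated TFR and 7.01 ± 1.20 and 24.3 ± 2.71 CPM in control and treated Treg libraries (SD, n = 3 each; difference 3.94, SE 0.74, adjusted p = 0.00474). Prdm1, the transcription factor Blimp-1, had a difference of 0.87 (SE 0.21, adjusted p = 0.0176), which ended at adjusted p = 0.11 with all 24 libraries and 0.082 without the kidney libraries. Nfil3, Tnfrsf9, Myb and Ccr2 were also among the higher members, and Itgb1 and the chemokine receptor Cxcr3 the lower ones. Ccr2 lost its call with all 24 libraries (adjusted p = 0.19). Of 31 cytokine and granule genes, 9 had a higher (29%) and 4 a lower difference (12.9%, Ebi3, Tnfsf8, Cd40lg and Csf1), and 4 and 2 with limma voom. Tnfsf8, the ligand of CD30, fell from 504 ± 48.5 to 131 ± 5.27 CPM in TFR and from 438 ± 17.3 to 229 ± 0.831 CPM in Treg libraries, a difference of -1.01 (SE 0.10, adjusted p = 9.14e-05).

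Markers of other lymphocytes were summed beside these genes. Of 9 tested markers of CD8 T and NK cells, 3 had a higher difference (Nkg7, Klrb1c and Klrd1). The list summed to 303 to 350 CPM in treated TFR, 22.1 to 42.7 CPM in control TFR, 113 to 116 CPM in treated Treg and 43.9 to 50.1 CPM in control Treg libraries. Eomes, a transcription factor that T cells also use, gave 192 to 230.0 CPM of that sum in treated TFR and 8.75 to 35.0 CPM in control TFR libraries, and its difference was not called (0.55, adjusted p = 0.491). Klrk1 was at 13.4 ± 1.65 CPM in control and 4.39 ± 0.149 CPM in treated Treg libraries, with no call (adjusted p = 0.318). The defining member Cd8a was at 0 CPM in TFR libraries and at most 0.735 CPM in Treg libraries. Ncr1, of NK cells, was at most 0.0691 and 1.201 CPM. Of 13 plasma cell markers, 6 had a higher difference (Jchain, Igkc, Ighg1, Prdm1, Xbp1 and Eaf2). Jchain encodes the joining chain of secreted antibodies. Jchain was at 2.92, 3.78 and 7.36 CPM in control TFR, 109, 116 and 111 CPM in treated TFR, 7.23, 10.2 and 7.31 CPM in control Treg and 24.7, 22.8 and 25.2 CPM in treated Treg libraries. It rose in both subsets without overlap, with a difference of 3.09 (SE 0.36, adjusted p = 0.000217). The plasma cell list summed to 1192 to 1269, 243 to 269, 359 to 384 and 249.98 to 255 CPM in treated TFR, control TFR, treated Treg and control Treg libraries, while Tnfrsf17 was at most 0.278 CPM in all 12. It shares Xbp1 and Prdm1 with T cells. Of 17 B cell markers 2 were higher (Bank1 and Cd74), 11.8% against 9.8% of all genes, the list summing to 1797 to 1990, 340 to 432, 1020 to 1108 and 279 to 325 CPM in the same order, with Ms4a1, which encodes CD20, at most 1.73 CPM. No marker of myeloid, erythroid, kidney or endothelial lists had a called difference. The part of these cells in the results was not tested.

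Genes at the core of regulatory T cell identity split evenly, with 7 of 29 higher and 7 lower, and 3 and 2 with all 24 libraries. The median of 0.00 changed sign between scalings. Ikzf2, the transcription factor Helios (chr1:69531214-69687245), was at 1046, 1057 and 1039.6 CPM in control TFR, 949, 1058 and 1017 CPM in treated TFR, 645, 683 and 667 CPM in control Treg and 1215, 1189.5 and 1239.5 CPM in treated Treg libraries. It rose in Treg cells by 0.87 (SE 0.05, adjusted p = 2.06e-07), from the lowest to the highest of the 4 groups, while TFR values overlapped (-0.06, adjusted p = 0.442), and the difference was -0.92 (SE 0.07, adjusted p = 2.03e-05). Nt5e, the ectoenzyme CD73 that makes adenosine (chr9:88327197-88372092), was at 289, 289 and 248 CPM in control TFR and 86.6, 96.1 and 86.2 CPM in treated TFR libraries. Treg libraries held 199.7, 186 and 182 CPM in controls and 176, 187 and 179.8 CPM after treatment. Treated TFR libraries alone were low, and the difference was -1.56 (SE 0.11, adjusted p = 1.08e-05). Nrp1, a semaphorin receptor, rose in Treg cells from 108 ± 2.96 to 321 ± 7.59 CPM and was at 149 ± 26.5 and 128 ± 26.2 CPM in control and treated TFR libraries (difference -1.80, SE 0.20, adjusted p = 0.000173, but 0.17 with all 24 libraries). Swap70, Ebi3, Cd83 and Rgs1 were the other lower members.

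On the higher side of that list stood Tnfrsf18, which fell in Treg cells from 244, 250.3 and 214 to 142, 149 and 132 CPM and was at 164, 214 and 225 CPM in control TFR and 221, 244 and 260.1 CPM in treated TFR libraries. Treg values did not overlap and TFR values did, with a difference of 1.01 (SE 0.16, adjusted p = 0.00175). GITR was part of both sort gates, so its level is not independent of the sort. Foxp3 was at 335, 359 and 418 CPM in control TFR and 524, 597 and 604 CPM in treated TFR libraries, and at 502, 514 and 459 CPM in control Treg and 589.7, 573 and 526 CPM in treated Treg libraries. All treated TFR libraries exceeded their controls, by 0.64 (SE 0.09, adjusted p = 0.000210). The difference of 0.44 (SE 0.13, adjusted p = 0.0348) missed the threshold in 16 of 25 alternative analyses, including relative log expression scaling (adjusted p = 0.0584). Il2ra, the high-affinity interleukin 2 receptor chain CD25, rose in both subsets, from 69.9 ± 3.57 to 193 ± 7.40 CPM in TFR and from 117 ± 15.6 to 221 ± 6.56 CPM in Treg cells. Its difference was 0.55 (SE 0.13, adjusted p = 0.0141), and adjusted p was 0.19 with all 24 libraries. Ctla4, the inhibitory receptor that captures CD80 and CD86, had a difference of -0.04 with a 95% interval of -0.24 to 0.16 (adjusted p = 0.840), and of -0.32 with the exon length trend removed (adjusted p = 0.0494).

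The sort and lineage genes of follicular cells gave no called difference and moved the same way in both subsets. Cxcr5 rose by 1.31 in TFR and by 1.31 in Treg cells (adjusted p = 8.73e-05 and 0.000135), with a 95% interval of the difference of -0.48 to 0.48. Bcl6, the repressor that specifies follicular T cells, fell by 1.39 in TFR and by 1.37 in Treg cells (interval -0.33 to 0.30), and Pdcd1 fell by 1.41 and 1.65 (interval -0.09 to 0.57). Icos, a costimulatory receptor needed for follicular cells, fell by 0.52 and 0.35 (interval -0.38 to 0.04). Of 29 members tested, 2 had a higher difference (Il4 and Pou2af1) and 6 a lower one (Btla, P2rx7, Slamf6, Il1r2, Sh2d1a and Cd200). These were 6.9% and 20.7%, against 9.8% and 5.24% of all genes. Btla, an inhibitory receptor that binds HVEM (chr16:45224315-45257670), was at 50.8, 61.3 and 53.9 CPM in control TFR, 51.9, 53.7 and 54.2 CPM in treated TFR, 23.7, 22.5 and 22.5 CPM in control Treg and 69.8, 67.1 and 75.7 CPM in treated Treg libraries. TFR values overlapped, while Treg libraries moved from the lowest to the highest group (difference -1.69, SE 0.15, adjusted p = 4.82e-05). Slamf6, a homotypic adhesion receptor, moved the same way, from 153 ± 0.770 to 359 ± 0.580 CPM in Treg cells against 183 ± 14.1 and 199 ± 7.79 CPM in control and treated TFR libraries (difference -1.12, SE 0.09, adjusted p = 2.59e-05).

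Several genes of naive and recirculating T cells were highest in control Treg libraries. Satb1, a chromatin organiser of naive T cells (chr17:51736187-51833290), was at 791, 804 and 793 CPM in control Treg and 192, 184 and 197 CPM in treated Treg libraries. In TFR libraries it was at 174, 156 and 134 CPM in controls and 132, 142 and 136 CPM after treatment. TFR values overlapped and Treg values did not, and the difference was 1.88 (SE 0.11, adjusted p = 6.4e-06). Ccr7, the receptor that guides cells into lymph nodes, fell in both subsets, from 788 ± 28.6 to 188 ± 11.3 CPM in Treg and from 274 ± 31.3 to 155 ± 10.1 CPM in TFR libraries (difference 1.25, SE 0.12, adjusted p = 7.21e-05). Of 24 members 6 had a higher difference (25%), Ets1, Lef1 and Igfbp4 among them, and 1 a lower one (4.17%, Ms4a6b). Tcf7, the transcription factor TCF-1, had a difference of -0.03 (95% interval -0.22 to 0.17). Ccr7 also led the chemokine receptors, of which 3 of 21 were higher (Ccr2 among them) and 3 lower (Gpr15, Ccr6 and Cxcr3). That was 14.3% each way, against 9.8% and 5.24% of all genes. With all 24 libraries Ccr2 and Ccr6 lost their calls (adjusted p = 0.19 and 0.382).

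Around the 2 injected ligands, 5 of 27 genes of OX40 and NF-kB signalling were higher (Bcl2l1, Tnfaip3, Nfkbia, Relb and Nfkb2) and 1 was lower (Nfkbiz), or 18.5% and 3.7% against 9.8% and 5.24% of all genes. The 5 became 2 without control Treg library 3 and 9 without control TFR library 1, and were 3 with all 24 libraries. Tnfrsf4 was at 237, 258 and 346 CPM in control TFR, 396, 425 and 441 CPM in treated TFR, 271, 258 and 263 CPM in control Treg and 290.1, 292 and 260.4 CPM in treated Treg libraries. TFR values did not overlap and Treg values did, but the difference of 0.50 (95% interval 0.15 to 0.85) did not pass over all genes (adjusted p = 0.0572). It did so with DESeq2 (adjusted p = 0.0471), limma voom (0.0366) and without control TFR library 3 (0.000809). The NF-kB inhibitor Nfkbia rose in TFR cells from 1395, 1495 and 1434 to 1858, 2075 and 2087 CPM and was at 1380.4, 1339 and 1362 CPM in control Treg and 1327, 1345 and 1249 CPM in treated Treg libraries (difference 0.53, SE 0.08, adjusted p = 0.00113). That call ended when the exon length trend, described below, was removed (adjusted p = 0.195). Nfkbiz, an atypical NF-kB cofactor, rose in both subsets and more in Treg cells, by 1.01 against 0.47 (difference -0.55, SE 0.09, adjusted p = 0.00204).

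Of 27 Notch pathway genes, 2 were higher (Nrarp and Jag2) and 2 lower (Itch and Rbpj), near the share of all genes. Dtx1, a Notch target that encodes Deltex 1, was at 19.9, 0 and 4.18 CPM in control TFR and 99.985, 124 and 135 CPM in treated TFR libraries. In Treg libraries it was at 28.8, 22.4 and 23.8 CPM in controls and 148, 144 and 125 CPM after treatment. It rose in both subsets without overlap, and the difference of 1.34 had a 95% interval of -0.60 to 3.28 (adjusted p = 0.360). Leaving out control TFR library 1 brought it to 3.75 (adjusted p = 0.00432), while leaving out library 2 gave 0.70 (adjusted p = 0.328). Nrarp, a target that damps Notch signalling, was at 3.22, 1.83 and 2.59 CPM in control TFR, 9.84, 9.97 and 8.10 CPM in treated TFR, 8.07, 6.45 and 7.35 CPM in control Treg and 5.96, 5.38 and 5.25 CPM in treated Treg libraries. Its difference was 2.26 (SE 0.53, adjusted p = 0.0141, but 0.10 without the kidney libraries). Jag2 also lost its call without the kidney libraries (adjusted p = 0.0763). Notch1 rose in TFR cells by 0.87 (adjusted p = 0.000373), and its difference of 0.46 had an interval of 0.05 to 0.86 (adjusted p = 0.122, and 0.0387 or 0.0247 without control TFR library 1 or 3).

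Targets of interleukin 2 and STAT5 had 8 of 20 members higher and none lower, with a median of 0.49, and 9 rose in TFR cells against 3 in Treg cells. The 8 became 5 without the kidney libraries and with limma voom. Cish, a feedback inhibitor of that pathway, was at 122.6, 85.6 and 114 CPM in control TFR and 198, 233 and 228 CPM in treated TFR libraries. Treg libraries held 229.9, 222 and 217 CPM in controls and 205, 203 and 189 CPM after treatment. Control TFR libraries alone were low (difference 1.20, SE 0.16, adjusted p = 0.000623). Socs3, a second feedback inhibitor, and the kinase Pim1 had differences of 0.96 and 0.80 (adjusted p = 0.00369 and 0.000653). Pim1 reached it by falling in Treg cells, from 1427 ± 15.7 to 744 ± 35.1 CPM. Of 31 genes of T cell receptor signalling 4 were higher and 4 lower, or 12.9% each way. Cd2, Thy1 and Cd3e were among the higher and Cd28, Plcg1 and Ptprc among the lower. Cd28 lost its call with all 24 libraries (adjusted p = 0.0584) and with the GC trend removed (0.0839). Of 16 co-inhibitory receptors 3 were higher (Vsir, Lag3 and Lair1) and 3 lower (Btla, Cd200 and Cd96), or 18.8% each way. Cd96 lost its call with all 24 libraries (adjusted p = 0.209) and with limma voom (0.0888). Of 24 apoptosis genes 4 were higher (Bcl2l1, Mcl1, Bcl2l11 and Bbc3) and 1 lower (Birc5), or 16.7% and 4.17%. The shares of all genes were 9.8% and 5.24%. Birc5 lost its call in 13 of 25 alternatives, among them all 24 libraries (adjusted p = 0.502), and Bbc3 without the kidney libraries (0.0603). Immediate early genes had 9 of 28 higher (32.1%) and 2 lower (7.14%, Fosb and Cd69). The 9 became 4 with the exon length trend removed and also without treated Treg library 3 or treated TFR library 2 or 3. Fos rose in both subsets, by 2.499 in TFR and 3.14 in Treg cells, with a difference of -0.64 (95% interval -1.16 to -0.11, adjusted p = 0.0985). Leaving out control TFR library 1, 2 or 3 brought that to adjusted p = 0.0384, 0.0463 or 0.0272, DESeq2 to 0.0204 and removal of the exon length trend to 0.0354.

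Genes of cytosolic ribosomal proteins, the structural parts of the translation machinery, gave the most uniform group. Of 50 members 44 had a higher difference and none a lower one, with a median of 0.72. In TFR cells 47 rose, whereas in Treg cells 10 rose and 8 fell, and the same 8 rose in TFR cells. The list summed to 21363 to 23488 CPM in control TFR, 36018 to 38568 CPM in treated TFR, 34056 to 34574 CPM in control Treg and 31238 to 34433 CPM in treated Treg libraries. Control TFR libraries alone were low, and treated TFR libraries stood above both Treg groups. Rplp1, a stalk protein of the large subunit (chr9:61913284-61914542), was at 495, 520.0 and 583 CPM in control TFR, 818, 841 and 911 CPM in treated TFR, 1197, 1241 and 1187 CPM in control Treg and 747, 760.0 and 688 CPM in treated Treg libraries. It rose in TFR and fell in Treg cells without overlap, with a difference of 1.41 (SE 0.10, adjusted p = 8.62e-06). Rps3, of the small subunit, rose by 0.54 in TFR cells and fell by 0.35 on the log2 scale in Treg cells (difference 0.89, SE 0.08, adjusted p = 3.88e-05). With the exon length trend removed 28 members were higher and 1 was lower, against 1161 and 564 of all 16270 genes.

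Many ribosomal protein mRNAs begin with a C followed by a run of pyrimidines, the tract through which the growth regulator mTOR controls their translation. These starts are shown because the members moved together. A C at the annotated start followed by at least 4 more bases that are each C or T, read on the gene's strand, was found in 8 of the 37 members with a RefSeq promoter entry (21.6%). Among all 10598 tested genes with an entry it was found in 313 (2.95%). Of the 8 members with the tract, 4 follow in order of p for the difference, and members not shown may have a smaller p. Each runs from 30 bases before the start to the first 20 of the transcript, with the tract in capitals (RefSeq, GRCm38.p6).
Rplp2, chr7:141447621-141447670, + strand: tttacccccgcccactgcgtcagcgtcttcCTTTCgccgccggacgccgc
Rpl28, chr7:4792935-4792984, + strand: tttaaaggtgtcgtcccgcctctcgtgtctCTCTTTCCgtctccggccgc
Rpl14, chr9:120571487-120571536, + strand: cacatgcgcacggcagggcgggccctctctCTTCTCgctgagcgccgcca
Rps6, chr4:86857348-86857397, - strand: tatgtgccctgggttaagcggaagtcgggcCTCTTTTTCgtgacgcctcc
The tracts of Rplp2, Rpl28, Rpl14 and Rps6 are 5, 8, 6 and 9 bases long, and their differences were 1.31, 0.89, 0.73 and 0.53 (adjusted p = 0.000112, 0.000434, 0.000471 and 0.00324). Rplp2, another stalk protein, rose in TFR cells from 341 ± 51.6 to 722 ± 35.4 CPM and was at 735 ± 18.4 and 628 ± 50.5 CPM in control and treated Treg libraries. Among the remaining members with an entry, 29 had no such tract at the annotated start. A tract beginning at any other base was not counted, so these members may still carry one. Of 1011 genes with a higher difference and an entry, 45 had the tract (4.45%).

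Several lists of energy metabolism and protein folding also held higher differences and no lower ones. Nuclear genes of the respiratory chain had 17 of 43 members higher and none lower (median 0.59), 31 rising in TFR cells against 4 in Treg cells. Atp5b, the catalytic subunit of ATP synthase, was at 389, 413 and 402 CPM in control TFR, 697, 721 and 716 CPM in treated TFR, 479.9, 470.4 and 457 CPM in control Treg and 465, 469 and 454 CPM in treated Treg libraries. TFR values moved without overlap from the lowest to the highest group while Treg values overlapped (difference 0.85, SE 0.07, adjusted p = 2.59e-05). The 17 became 8 with all 24 libraries, 6 without the kidney libraries, 7 with limma voom and 8 with the exon length trend removed. Leaving out 1 library gave 9 (without treated Treg library 1 or 3) to 22 (without control TFR library 3). Higher calls over all genes went from 1594 to 984, 559, 648 and 1161 in the first 4 of these alternatives. Without control TFR library 3 they were 2522. The 13 mitochondrially encoded mRNAs fell in both subsets, 11 in TFR and 12 in Treg cells, and 8 had a higher difference, their fall being smaller in TFR cells. mt-Nd5, a subunit of complex I, went from 13722 ± 578 to 3241 ± 127 CPM in TFR and from 14617 ± 143 to 2313 ± 176 CPM in Treg libraries (difference 0.58, SE 0.08, adjusted p = 0.000794). None of the 13 was called once the exon length trend was removed. With the GC trend removed instead, 11 of the 13 were higher, and their median difference went from 0.53 to 1.08.

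Glycolysis genes rose in both subsets, 17 and 16 of 21, and 8 had a higher difference (38.1%) with none lower. Ldha, which makes lactate, rose from 257 ± 11.05 to 847 ± 38.6 CPM in TFR and from 287 ± 19.4 to 518 ± 38.1 CPM in Treg cells (difference 0.87, SE 0.10, adjusted p = 0.000262). Gapdh, of the same pathway, had a difference of 1.02 (SE 0.11, adjusted p = 0.000173). Of 27 genes of endoplasmic reticulum folding and the unfolded protein response, 10 were higher (37%) and none lower. The chaperone Calr rose in both subsets, by 1.41 in TFR and 0.59 in Treg cells, and Manf, which is induced by misfolded protein, by 1.88 in TFR cells (differences 0.81 and 1.63, adjusted p = 9.62e-05 and 0.000173). Ern1, the sensor IRE1, fell in Treg cells from 108, 110.3 and 104 to 41.2, 42.0 and 42.0 CPM and was at 36.8, 45.6 and 24.3 CPM in control TFR and 42.2, 48.3 and 43.4 CPM in treated TFR libraries (difference 1.68, SE 0.24, adjusted p = 0.000896). Control Treg libraries alone were high in Ern1. Heat shock genes had 7 of 20 higher (35%) and none lower. Cholesterol genes had 2 of 25 higher (Abcg1 and Srebf2), a share of 8% against 9.8% of all genes. Srebf2 lost its call in 5 of 25 alternatives. By DESeq2, 2 heat shock genes and 1 folding gene were lower, and without the kidney libraries the 10 folding genes became 6. The 8 glycolysis genes became 4 with limma voom.

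Cell division was the main group on the other side. Mitosis genes rose in both subsets, 33 of 40 in TFR and 35 in Treg cells. Of these 40 genes, 11 had a lower difference (27.5%) against 1 higher one (2.5%), with a median of -0.70. The list summed to 2229 to 2586 CPM in control TFR, 4747 to 5246 CPM in treated TFR, 1421 to 1471 CPM in control Treg and 3903 to 3956 CPM in treated Treg libraries, so Treg cells began lower and rose by the larger factor. Mki67, the proliferation marker Ki-67 (chr7:135689784-135716361), was at 515, 279 and 441 CPM in control TFR, 1085, 1172 and 1176 CPM in treated TFR, 126, 119 and 94.2 CPM in control Treg and 920.3, 929.6 and 867 CPM in treated Treg libraries. It rose by 1.47 in TFR and 3.00 in Treg cells without overlap (difference -1.53, SE 0.25, adjusted p = 0.00188). Top2a, the topoisomerase that untangles chromosomes, had a difference of -0.78 (SE 0.10, adjusted p = 0.000369). The condensin subunit Ncapg had one of -1.62 (SE 0.17, adjusted p = 0.000111), which ended at 0.21 with all 24 libraries. Kif23, a motor of cytokinesis, was the exception, rising from 58.1 ± 7.003 to 103 ± 2.65 CPM in TFR and falling from 98.3 ± 6.55 to 75.5 ± 0.798 CPM in Treg cells (difference 1.20, SE 0.14, adjusted p = 0.000197). Of 40 S phase genes 33 rose in TFR and 27 in Treg cells, against 22.3% and 8.88% of all genes. Among them 3 had a higher difference (Mcm2, Mcm5 and Fen1) and 1 a lower one (Mcm10). These shares of 7.5% and 2.5% were below the 9.8% and 5.24% of all genes. The 3 became 9 and 7 without control TFR library 1 or 2, 7 with the GC trend removed and 6 with DESeq2. Higher calls over all genes were 2563, 2520, 1543 and 2018 in these alternatives, against 1594. Mcm10 lost its call with all 24 libraries (adjusted p = 0.405) and without the kidney libraries (0.11). The 11 lower mitosis genes became 4 with all 24 libraries, 6 without the kidney libraries, and 7 to 17 on leaving out 1 library, the most without control TFR library 3. Lower calls over all genes also went from 852 to 424 and 358 in the first 2 of these. Without control TFR library 3 they were 1379.

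Type I interferon response genes also leaned to Treg cells, with 9 of 36 lower and 3 higher (Bst2, Oas2 and Ifit3b) and a median of -0.32. These were 25% and 8.33%, against 5.24% and 9.8% of all genes. The list summed to 1291 to 1422 CPM in control TFR, 1442 to 1555 CPM in treated TFR, 1389 to 1429 CPM in control Treg and 1935 to 2046 CPM in treated Treg libraries. Treated Treg libraries stood above the other 9. Eif2ak2, the kinase PKR that halts translation upon double-stranded RNA, was at 42.8, 26.8 and 32.4 CPM in control TFR, 24.5, 26.8 and 28.3 CPM in treated TFR, 14.8, 11.8 and 12.2 CPM in control Treg and 31.4, 31.4 and 30.6 CPM in treated Treg libraries. It rose in Treg cells without overlap, and TFR values overlapped (difference -1.63, SE 0.27, adjusted p = 0.00230). Trim30a, an interferon-induced regulator, fell in TFR and rose in Treg cells (difference -0.93, SE 0.13, adjusted p = 0.000769). The 9 lower members became 3 with all 24 libraries, 4 with limma voom or the replicate block, 2 without the kidney libraries and 5 with the GC trend removed. Leaving out 1 library gave 4 to 6 for Treg and treated TFR libraries, and 9 to 11 for control TFR libraries. Lower calls over all genes went from 852 to 424 with all 24 libraries, 617 with limma voom and 666 with the replicate block. Without the kidney libraries they were 358, and with the GC trend removed 684.

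**Figure D3:**
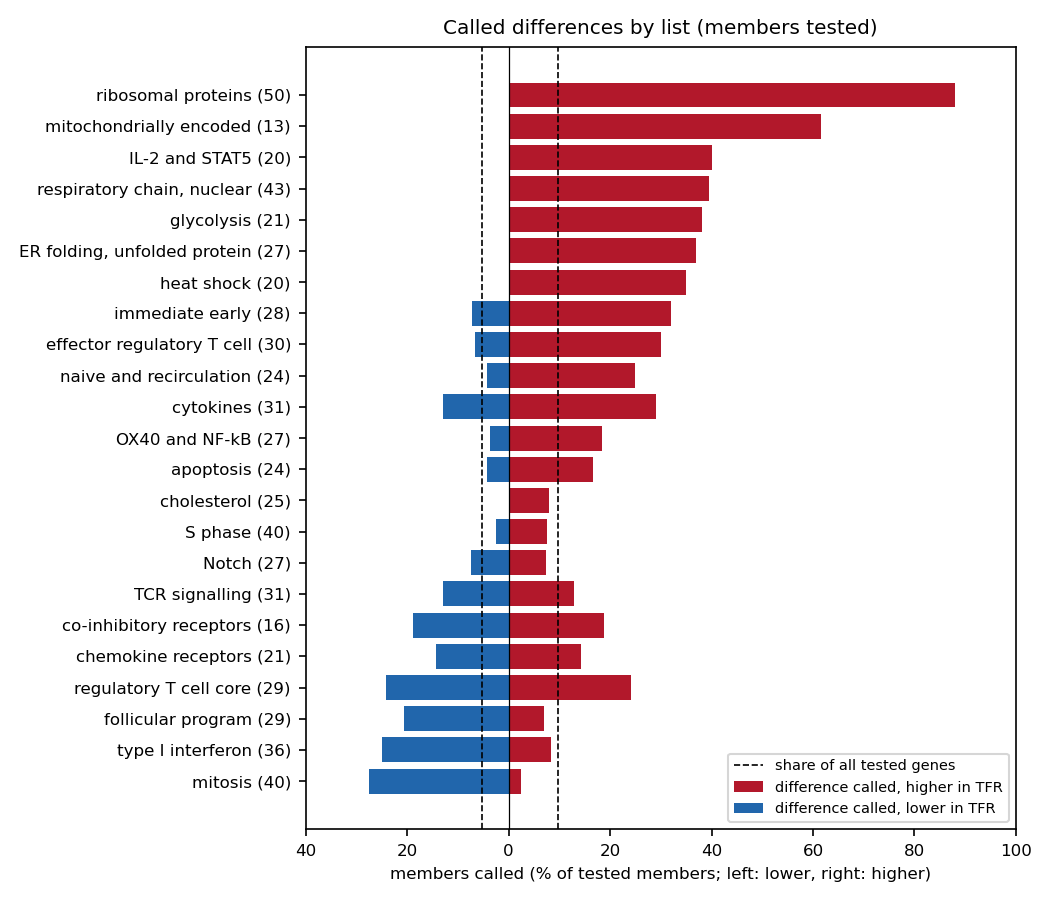
Share of tested members (x axis, %) with a called difference, higher in TFR cells to the right and lower to the left, for 23 gene lists (y axis, members tested in brackets). Dashed lines mark the shares of all tested genes, 9.8% higher and 5.24% lower. Ribosomal proteins stand furthest right at 88% and mitosis furthest left at 27.5%.

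Other genes with wide lower differences included several that rose in Treg cells. Ttn, which encodes the giant muscle protein titin and has a very long mRNA (chr2:76703980-76982547), was at 1786, 1519 and 1357 CPM in control TFR, 3362.5, 3624.5 and 3608 CPM in treated TFR, 536, 571 and 558 CPM in control Treg and 5015, 5148 and 4624 CPM in treated Treg libraries. It rose in both subsets without overlap, by 1.18 in TFR and 3.15 in Treg cells (difference -1.97, SE 0.12, adjusted p = 6.4e-06). With the exon length trend removed the difference was -0.96 (adjusted p = 0.00362). Tespa1, an adaptor of T cell receptor signalling, Plcb4, a phospholipase C, and Mbd5, a methyl-CpG binding domain protein, had differences of -1.87, -1.83 and -1.73 (adjusted p = 0.000487, 1.74e-05 and 0.000530). Each rose in Treg cells, Tespa1 from 30.8 ± 1.46 to 95.7 ± 2.78 CPM. Adamts6, a secreted metalloprotease, fell in TFR cells instead, from 318, 326 and 356 to 84.6, 94.2 and 83.5 CPM. Its Treg levels were 251, 239 and 271 CPM in controls and 227, 223 and 238 CPM after treatment (difference -1.78, SE 0.11, adjusted p = 6.4e-06). Olig2, a transcription factor of oligodendrocytes, was highest in control TFR libraries at 42.5, 56.4 and 67.0 CPM and fell in both subsets, to 0.622, 0.835 and 1.22 CPM in TFR and from 5.18, 5.63 and 4.58 to 0.348, 0.469 and 0.353 CPM in Treg libraries. Its difference of -2.25 (SE 0.43, adjusted p = 0.00498) ended at 0.834 after thinning to the smallest library.

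**Figure D4:**
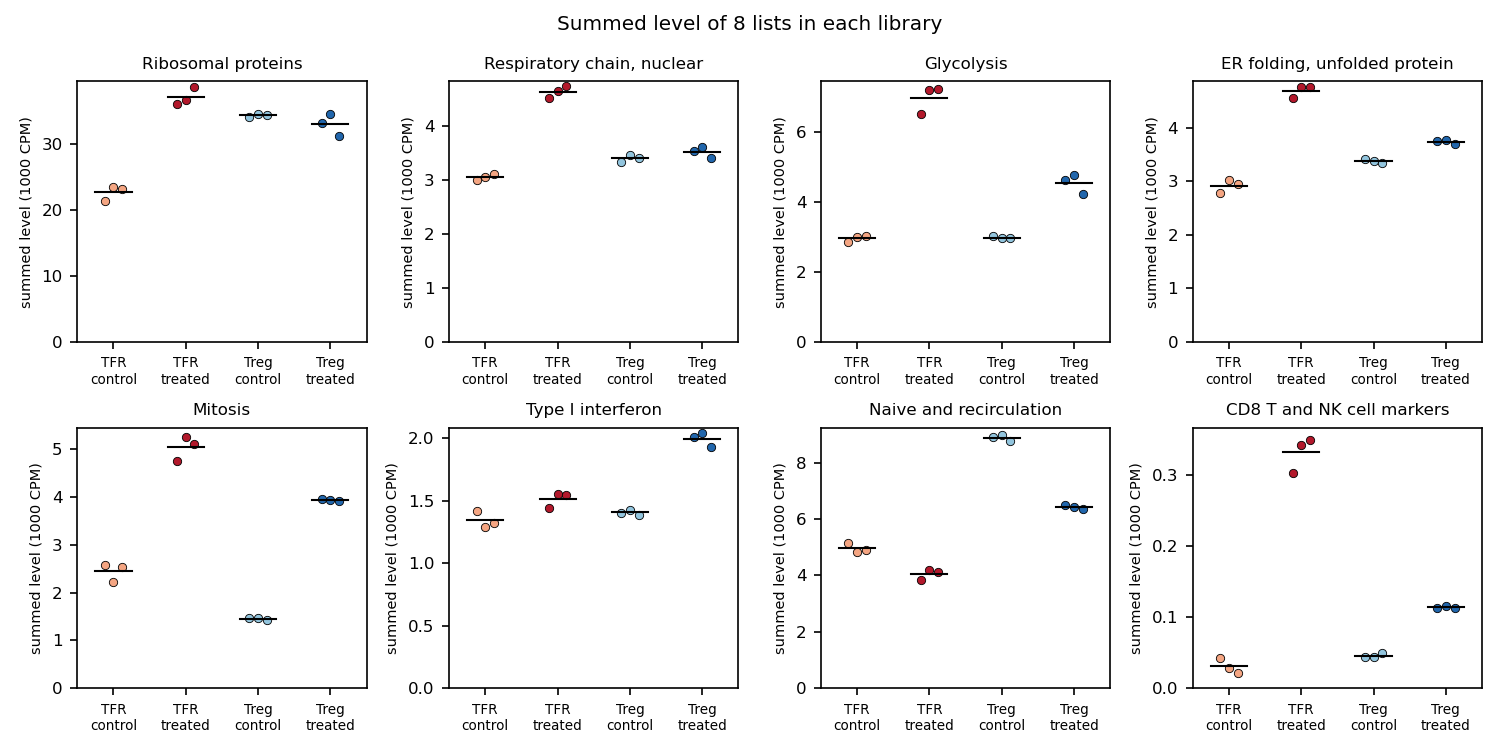
Summed level of 8 lists (y axis, in units of 1000 CPM, starting at 0) in each library of the 4 groups (x axis), with group means as lines. Ribosomal proteins were low in control TFR libraries alone, mitosis genes rose by a larger factor in Treg cells, and the CD8 T and NK cell markers reached 303 to 350 CPM in treated TFR libraries.

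By correlation and by the number of called genes, TFR and Treg libraries were closer to each other in treated than in control mice. The correlation of log2 CPM over the 16270 genes, a description across genes that are not independent replicates, was 0.923 to 0.972 between treated TFR and treated Treg libraries and 0.871 to 0.898 between control ones. TFR and Treg cells differed in 2772 genes in control mice (17%) and in 1568 in treated mice (9.64%). Among the genes with a higher difference, such as Satb1 and Rplp1, the gap between subsets was the larger one in control mice for 1217 of 1594 (76.3%). Among those with a lower difference it was so for 372 of 852 (43.7%), as for Mki67 and Ttn but not for Nt5e, Itgb1 or Nrp1. Ribosomal proteins had a median gap of -0.58 in control and 0.15 in treated mice, naive genes of -1.37 and -0.79, and mitosis genes of 1.35 and 0.63. The comparison of control cells rests on the shallower control TFR libraries, which also spread most (biological coefficient of variation 0.895). Neither the correlations nor these counts were taken at equal depth. Whether the cells themselves became more alike was therefore not tested.

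The difference also moved with gene length. Called genes with a higher difference had a median exon length of 2742 bases and those with a lower difference 8133 bases, against 3686 bases over all tested genes. Over 9504 genes of at least 10 CPM in the highest group, the Spearman correlation of the difference with log2 exon length was -0.369 and with GC content 0.297, both across genes and not across samples. The genes were split by length into 10 bins. In the bin of shortest genes the median difference was 0.55, and 20.6% of genes were called higher and 1.26% lower. In the bin of longest genes it was -0.36, with 2.63% called higher and 30.5% lower. The trend lay in TFR cells: the median TFR effect went from 0.61 to -0.24 between these bins, and the median Treg effect from 0.09 to 0.10. Ribosomal protein genes are short, and Ttn, Itgb1 and Mki67 have long mRNAs. Ttn, Itgb1 and Mki67 kept their call and direction in all 25 alternatives, removal of the length trend among them. Ribosomal protein genes with a higher difference went from 44 to 28 with that removal. With a length trend removed from each library, 1161 genes were higher and 564 lower.

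**Figure D5:**
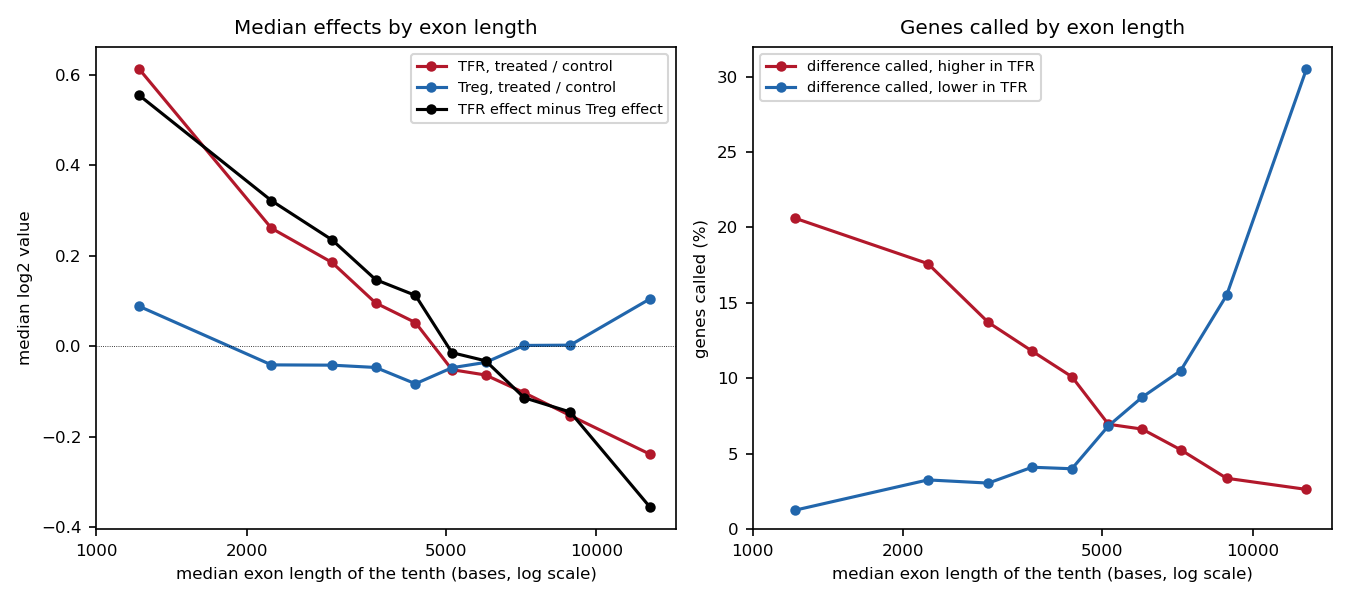
Genes of at least 10 CPM in the highest group were split into 10 bins by exon length (x axis, median of the bin in bases, log scale). The left panel gives the median log2 treatment effect in TFR and Treg cells and the median difference, which goes from 0.55 to -0.36, and the right panel the percentage of genes called in each direction.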

How the data were processed

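The deposited tables hold the authors' raw counts for 39056 Ensembl genes, made from total RNA depleted of ribosomal RNA with STAR, featureCounts and mm10, per the submitters' processing notes; for versions, annotation release and strand setting: not given in the sources used here. Symbols and coordinates come from GENCODE M21 by gene ID without its version (38872 matched, 184 not). Counts of 12 libraries were fitted with edgeR 4.0.16 (R 4.3.3): filterByExpr by group, TMM scaling, 4 group means, no covariates, common biological coefficient of variation 0.465. The contrast was (treated TFR minus control TFR) minus (treated Treg minus control Treg), two-sided, with a threshold of 0.05. The other libraries entered 1 alternative only. Means are ± SD over 3 libraries, and intervals are 95% intervals of the model. Where control TFR libraries held no read, bounds use a floor of 3 reads over the group; Wilson intervals and floors cover counting error only. No 2 libraries were merged, because every pair within a group exceeded counting noise (chi-square over its degrees of freedom at least 4.70). Library totals ran from 4.85 to 53.8 M counts, and a mitochondrial share had a 95% Wilson interval of at most ± 0.0276 percentage points.

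The members and the 32 gene lists were chosen with earlier results of these data known, so no list is tested and no p is adjusted over a list. Named genes are up to 10 per direction by size among genes called in the 12-library fit, the 24-library fit and the fit without kidney libraries, with at least 5 CPM and non-overlapping values in a subset; up to 6 per kind of opposite effect under the same conditions; predicted genes, pseudogenes and antigen receptor genes were left out of both; the 3 members per list with the smallest p; and 20 fixed names. Further names, such as Gzmb, Jchain and all called members of a list where these were 5 or fewer, were chosen after their values were seen; some genes are not reported here. Alternatives were other scalings, filters, DESeq2 1.42.0, limma voom 3.58.1, a replicate block, thinning and leaving out libraries; removing Gm42418 and Gm26917, exon length trends or GC trends was added after the data were seen. On simulated data, the fit recovered 45% and 72% of 100 genes each with a log2 difference of 1 and 2 among 15239 genes. The changed genes were drawn from those with a mean of at least 10 CPM. That run used 1 spread per gene for all groups, unlike the data, where control TFR libraries spread most (biological coefficient of variation 0.895). Recovery under unequal spread was not measured. In 2 runs without change, drawn with each group's own common spread, the fit made 25 and 21 false calls. Genes without control TFR reads also had none in simulated treated TFR libraries, so these runs do not cover calls of such genes. Other annotated genes overlap Foxp3, Gapdh, Cxcr5, Notch1, Satb1, Il12rb2, Manf, Bcl6, Cish, Cdkn1a, Rpl28, Rplp2, Rps3, Ncapg, Top2a, Eif2ak2, Ttn, Mbd5, Polg2, Parp3, Pim1, Nrarp, Nrp1, Cd3e, Mcam, Prg4, Rgs11, Hist2h2ab, Tnfrsf18, Ikzf2 and mt-Nd5, among others, so their values are uncertain without a known strand setting.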

Additional observations from a re-analysis of the deposited data

Results flagged for a closer look

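The treatment effect differed between TFR and Treg cells, by the test of the difference itself, for 1594 genes in the higher and 852 in the lower direction. The genes named for size or for opposite effects were flagged by that test. Where control TFR libraries had no read, the log2 difference is a lower bound: 6.82 for Igfbp4, 6.57 for Il12rb2, 5.402 for Rgmb, 5.15 for Hist2h2ab, 5.01 for Prg4, 4.96 for Ccl4, 4.93 for Nkg7, 4.63 for Mcam and 4.53 for Rgs11. Mcam and Prg4 were at 11.9 and 12.1 CPM in treated TFR library 1, which held kidney transcripts, and at 1.57 to 2.80 CPM in libraries 2 and 3. Lower differences were -2.64 for Stx17, -2.25 for Olig2, -1.97 for Ttn, -1.87 for Tespa1, -1.83 for Plcb4, -1.78 for Adamts6, -1.73 for Mbd5, -1.72 for Gprin3, -1.71 for Itgb1, -1.69 for Clec2i, -1.48 for Polg2, -1.43 for Rab11fip2 and -1.37 for Parp3. Higher ones were 2.80 for Sdc4, 2.24 for Suox, 2.23 for Prkd3, 2.10 for Cdkn1a and 1.96 for Adprhl2. Groups of 3 libraries are too small for a test of single outlying libraries, and no cause of these differences was tested.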

How the results depend on the processing

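Of 106 named genes, none changed direction with a call under the 25 alternatives. The main counts were 2446 genes with a called difference (1594 higher, 852 lower), 5514 and 2551 with an effect in TFR and Treg cells, and 179 with opposite effects. All 24 libraries gave 1408 (984 and 424), 1640 in Treg cells and 68 opposite; leaving out both kidney libraries gave 917 (559 and 358), 3502 in TFR, 1471 in Treg cells and 67 opposite; limma voom gave 1265 (648 higher), 2654 in TFR and 6509 in Treg cells, which turned the order of the subsets. DESeq2 called 1518 lower and 344 opposite, no low-count filter 113 opposite, a mean of at least 10 CPM 948 higher, thinning 957 higher, and removing the exon length trend 564 lower and 114 opposite. Of called differences 65.2% were higher, against 48.3% at 10 CPM, 51.2% with limma voom and 54.8% after thinning. Leaving out 1 library gave 1357 (without treated Treg 1) to 3901 (without control TFR 3) called differences, 852 to 2563 higher, 505 to 1379 lower, 4044 to 6685 in TFR cells, 1589 to 3933 in Treg cells and 88 to 385 opposite; leaving out any control TFR library raised the called differences. The replicate block gave 1796 (1130 and 666) and 128 opposite; numbers do not pair the libraries, since 1 of 18 same-number pairs correlated above 0.1 (range -0.67 to 0.53). Causes were not tested. The low totals of control TFR libraries limit what can be said of low genes there.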

Other observations

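Replication-dependent histone genes, whose mRNAs are short and made in S phase, were looked at after their values were seen, because Hist2h2ab was among the widest differences. Of 61 tested, 29 had a higher and none a lower difference, against 9.8% and 5.24% of all genes. In TFR cells 53 rose and in Treg cells 38, and none fell in either. Their summed mean level went from 1517 to 7085 CPM in TFR and from 2136 to 4615 CPM in Treg cells, so that control TFR cells were the lowest group and treated TFR cells the highest. Hist1h4d, a histone H4 gene named after its values were seen, was at 31.7 CPM in control TFR, 270.4 CPM in treated TFR, 83.8 CPM in control Treg and 209.9 CPM in treated Treg libraries on average (difference 1.78, adjusted p = 0.00176). On the list of other S phase genes, 3 of 40 had a higher difference, Mcm2 and Mcm5 of the replicative helicase among them. That share of 7.5% was below the 9.8% of all genes.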
